A study of Mus musculus with 6 samples.

Results

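The proteasome genes described here are the protein-coding mouse genes whose symbol is Psma to Psmg followed by a digit, without the immunoproteasome subunits Psmb8, Psmb9 and Psmb10. This rule gave 47 of the 21769 genes found in all 6 files: 16 of the catalytic core (Psma and Psmb), 20 of the regulatory cap (Psmc and Psmd), and 11 activators, inhibitors and assembly factors (Psme, Psmf, Psmg and Psmc3ip). Psmc3ip meets the rule by its symbol alone, since it encodes a recombination cofactor and no proteasome subunit. The cap genes include Psmd5, Psmd9 and Psmd10, which encode assembly chaperones of the cap, and they enter its counts and medians. The RNA came from wild-type 3T3-L1 cells, a clonal mouse line that turns from fibroblast-like preadipocytes into fat cells, in 3 libraries from chronic intermittent hypoxia (CIH) and 3 control libraries. Both groups were differentiated with insulin and then held in medium with 0.1 µM insulin until day 8. Oxygen levels and cycle times are not stated in the labels. No label names separate cultures, so the p-values measure only the spread between libraries, which may be technical.

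The proteasome is the cell's main protease for proteins tagged with ubiquitin. Its core is a barrel of stacked alpha and beta rings, in which Psmb5, Psmb6 and Psmb7 carry the chymotrypsin-like, caspase-like and trypsin-like active sites, and the alpha rings close the entrance. The cap binds the barrel's ends: its base holds a ring of ATPases (Psmc1 to Psmc6) that unfold the substrate, and its lid removes the ubiquitin through Psmd14. When proteasome capacity falls short, the transcription factor NRF1 (the Nfe2l1 product) raises subunit genes together through antioxidant response elements, and in brown fat this NRF1 route is known to support heat production.

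All values are FPKM, fragments per kilobase, scaled for depth. Replicates 1 and 2 of both groups were gene tables, whose value steps correspond to between 25733825 and 27991118 fragments per library when the length is the gene's summed exons. Replicate 3 of both groups was a pair of transcript tables, summed per gene, in which a proteasome gene had 1 to 6 rows and the depth is unknown. Levels are therefore compared within a kind of table only. Counted from the steps, a tested proteasome gene had between 121 fragments (Psmg3) and 14739 fragments (Psma1) in a gene-table library, with a median of 3198. The replicate 3 pair stood apart from the rest. Mitochondrial genes took 22.4% of FPKM in CIH 3 and 43.7% in control 3, against 15.5% and 16.3% in CIH 1 and 2 and 14.2% and 11.2% in control 1 and 2. The 10 adipocyte markers summed to 8568 and 7654 FPKM in CIH 1 and 2, against 8055 and 8398 FPKM in control 1 and 2. In the pair they summed to 733 FPKM in CIH 3 and 31399 FPKM in control 3, so the library labelled CIH 3 carried little of the adipocyte RNA that its label names. The 8 macrophage markers summed to 7.72 to 12.5 FPKM in the CIH libraries and 6.36 to 9.29 FPKM in the controls, with Cd14 at 6.27 to 8.39 FPKM in CIH and 1.40 to 7.71 FPKM in control, while Adgre1 and Tyrobp were listed at 0 in all 6 libraries. Of the 6 endothelial markers none was tested, the highest, Pecam1, was at 0.129 to 0.495 FPKM in CIH and 0.287 to 0.451 FPKM in control, and Emcn was listed at 0 throughout.

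In replicates 1 and 2, limma called higher in CIH the 3 catalytic core genes, 1 gene each of the alpha ring and the ATPase ring, and 3 of 4 core assembly chaperones. The cap scaffold gene Psmd1 and the activator gene Psme1 were called lower. In all, 45 of the 47 genes averaged 1 FPKM or more across the 6 libraries and were tested with limma on log2(FPKM + 1). Of these 45, 8 were higher in CIH, 2 were lower and 35 did not pass an adjusted p of 0.05. That is 22.2% called, against a background of 39.1% of the 10976 genes tested. By direction, 18.2% of all genes tested were called higher and 20.9% lower. The gap between these shares was not tested. Most differences pointed upward without passing: 37 of 45 changes were above 0, against 47.6% of all genes. Both CIH libraries lay above both controls for 24 genes, against 35.1% of all genes, and below them for 4 genes, against 38.9%. The median log2 change was 0.30 over the 14 core genes, 0.11 over the 20 cap genes, 0.12 over the 11 others and -0.01 over all genes tested.

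These calls sat close to the threshold, with adjusted p between 0.0225 and 0.0455. With no filter on low values limma called 0 of 46 (8 at an unadjusted p under 0.05), against 14.9% of all genes tested. It called 18 of the 45 with upper-quartile scaling, against 39.5% of all genes, so the lower share called was not kept there. With the filter set over the 4 libraries compared it called 18, against 50.1%. The core median was 0.18 without CIH 1 and 0.30 without control 1, and the cap median was 0.04 and 0.12. The split of 8 higher and 2 lower was 6 and 4 with libraries scaled to total FPKM, and 12 and 1 with median-of-ratios scaling. CIH 1 had the higher value of the CIH libraries for 43 of the 45 genes, whereas 53.7% of all genes tested were higher in CIH 1 than in CIH 2.

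**Figure D1:**
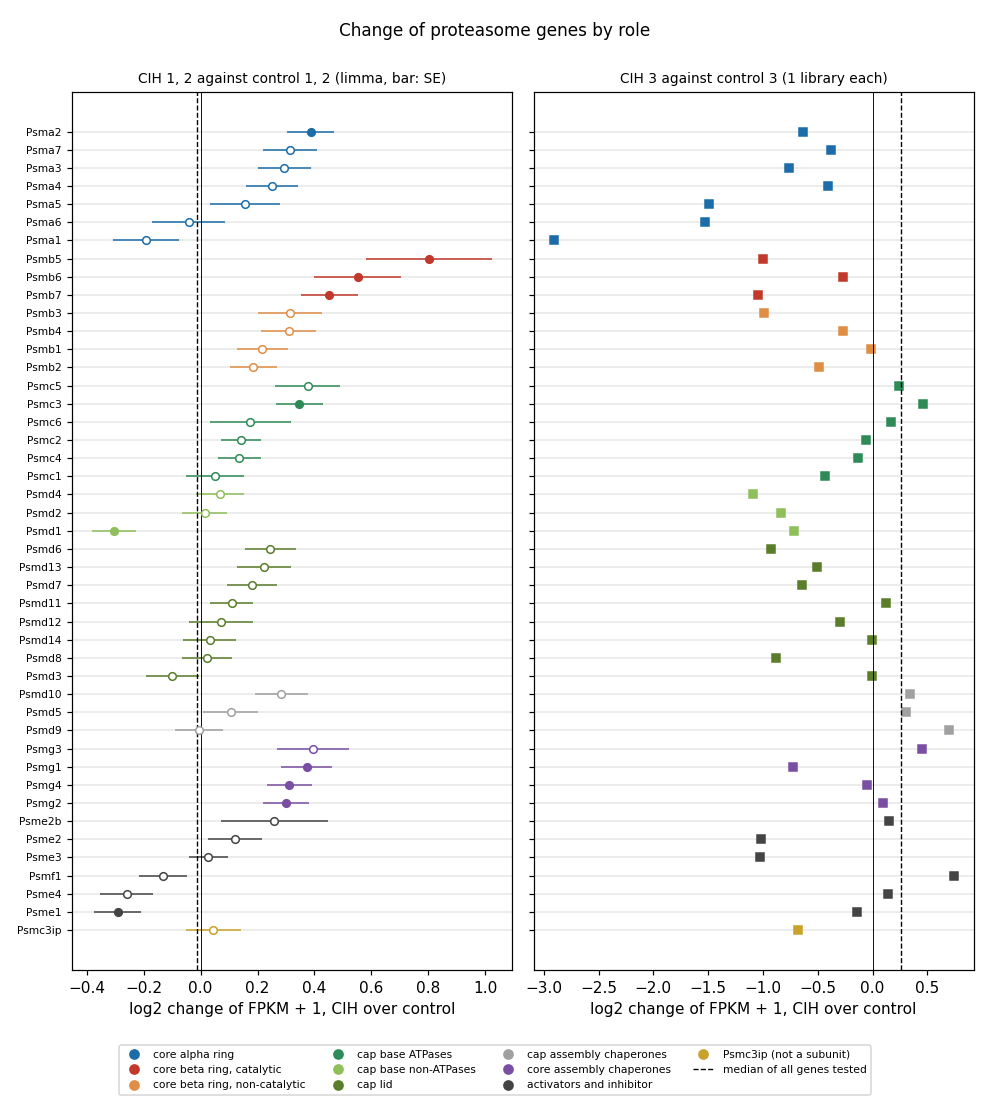
Log2 change of FPKM + 1 (x axis), CIH over control, for each of the 45 tested proteasome genes grouped by role, with replicates 1 and 2 on the left (points with SE bars, filled where limma's adjusted p was under 0.05) and the replicate 3 pair on the right (squares, 1 library per group). On the left the 3 catalytic genes lie at 0.45 to 0.80, and on the right all 14 core genes lie below 0, while the dashed lines mark the median of all genes tested, -0.01 and 0.26.

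The catalytic beta subunits had the highest changes of the core. Psmb5, the chymotrypsin-like protease, measured 139 and 121 FPKM in CIH 1 and 2, against 59.1 and 92.3 FPKM in control 1 and 2. Both CIH values lay above both controls, and the controls differed from each other by more than the CIH libraries did. Its log2 change was 0.80 (SE 0.221, limma adjusted p = 0.0419), and its means were 130.0 ± 12.5 FPKM in CIH and 75.7 ± 23.5 FPKM in control (SD, n = 2 each). The log2 change was 0.49 without control 1 (limma adjusted p = 0.0512) and 1.12 without control 2. The call was also lost without CIH 1 (adjusted p = 0.162), without CIH 2 (0.0943), with a pseudocount of 0.1 (0.0536) and with no filter on low values (0.168). Psmb6, the caspase-like protease, had 111 and 89.0 FPKM in the CIH libraries and 60.7 and 75.0 FPKM in the controls. Both CIH values lay above both controls, as for 35.1% of all genes tested, and its log2 change was 0.55 (SE 0.154, adjusted p = 0.0431 by limma). That change was 0.40 without control 1 and 0.39 without CIH 1. Limma did not call Psmb6 with a pseudocount of 0.1 (adjusted p = 0.0532) or with no filter on low values (0.1595). Psmb7, the trypsin-like protease, stood at 52.5 and 44.4 FPKM in CIH and at 34.3 and 35.7 FPKM in control. Its controls nearly coincided, and its log2 change was 0.45 (SE 0.0992, limma adjusted p = 0.0232).

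Structural beta subunits, which hold no active site, lay above control by less than the proteases did, and 0 of 4 were called by limma, with 2 at an unadjusted p under 0.05. Psmb3 had a log2 change of 0.31 (adjusted p = 0.0793) and Psmb4 of 0.31 (adjusted p = 0.0594). The lowest changes of the ring belonged to Psmb1 and Psmb2. Psmb1 had 53.0 and 45.8 FPKM in CIH 1 and 2 and 42.5 and 42.0 FPKM in control 1 and 2, a log2 change of 0.22 (SE 0.0896, adjusted p = 0.113). Psmb2 had 76.8 and 68.5 FPKM in CIH and 64.5 and 62.9 FPKM in control, a log2 change of 0.19 (SE 0.0827, adjusted p = 0.135). In each of the 4 genes both CIH libraries exceeded both controls, so all 7 beta genes tested had CIH above control without overlap, against 35.1% of all genes tested. Psmb11, the beta subunit of the thymus proteasome, was near 0 in every library and was not tested.

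The alpha ring, which gates the barrel, was split. Of its tested genes 14.3% were called, against 39.1% of all genes tested. Changes were above 0 for 5 of its 7 tested genes. Psma2 was the 1 of the 7 called higher, at 35.0 and 31.0 FPKM in CIH 1 and 2, against 24.4 and 25.5 FPKM in control 1 and 2 (log2 change 0.39, SE 0.0837, limma adjusted p = 0.0225). Psma7 had 56.7 and 48.6 FPKM in CIH and 41.0 and 43.0 FPKM in control, with no overlap but an adjusted p of 0.0532 (log2 change 0.32, SE 0.0951). Psma3, Psma4 and Psma5 had log2 changes of 0.29, 0.25 and 0.16 without passing. The most abundant subunit genes did not follow. Psma6 had 183 and 147 FPKM in CIH and 175 and 164 FPKM in control, so the controls lay between the CIH libraries (log2 change -0.04, SE 0.127, adjusted p = 0.817). Psma1 had 169.8 and 148 FPKM in CIH and 194 and 169.6 FPKM in control, with CIH 1 and control 2 nearly equal (log2 change -0.19, SE 0.115, adjusted p = 0.234). Psma8, the testis form of an alpha subunit, was listed at 0 in all 6 libraries.

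**Figure D2:**
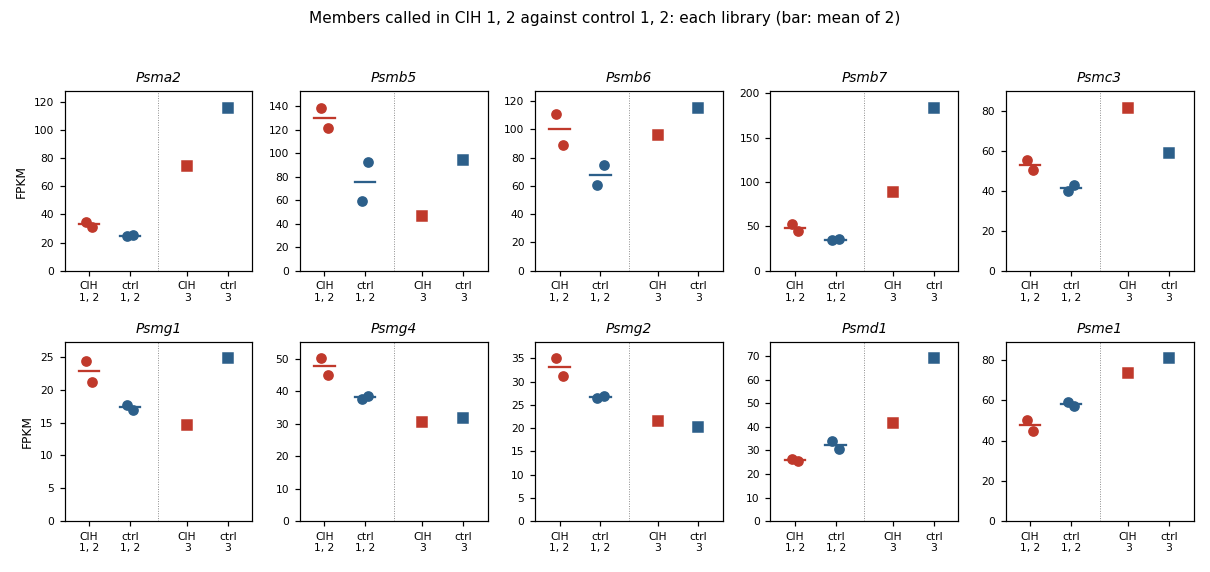
FPKM (y axis, from 0) of the 10 proteasome genes called in replicates 1 and 2, 1 panel per gene, with CIH in red left of control in blue, circles for gene-table libraries, bars for their means and squares for the replicate 3 pair. Psmb5 shows the widest gap between CIH 1 and 2 (139 and 121) and control 1 and 2 (59.1 and 92.3), and its squares stand the other way round, 46.8 in CIH 3 and 94.4 in control 3.

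Promoter sequence was read for the same genes because NRF1 and NF-Y are known to drive subunit genes. RefSeq promoters (GRCm38.p6, from 250 bases before to 50 after the gene's start) matched 39 of the 47 genes, in 42 windows. Psma8, Psmb1, Psmb2, Psmb7, Psmc3, Psmd3, Psmd7 and Psmg2 had no entry. The antioxidant response element core, TGACNNNGC on either strand, was found in 14.3% of the proteasome windows, in 14.3% of promoters of all genes tested and in 12.4% of all RefSeq promoters. The first pair of lines gives it in the proteases Psmb5 and Psmb6, whose RNA was higher in CIH 1 and 2, and the next in the ATPase gene Psmc6, which was not called. Psmb5 is from chr14:54618009-54618067 (minus strand), with the motif 47 bases before the start. Psmb6 is from chr11:70525323-70525356 (plus strand), with the motif 9 bases before the start, and Psmc6 is from chr14:45329574-45329630 (plus strand), with the motif 227 bases before the start. The letters CCGGAA, an ETS-factor core, were in 52.4% of proteasome windows and 66.7% of cap windows, against 28.9% of promoters of all genes tested and 14.9% of all RefSeq promoters. Core windows, at 30.8%, lay near the share of all genes tested. Psmd2 (chr16:20651602-20651651, plus strand), a cap scaffold gene with a change near 0, and Psmg1 (chr16:95990999-95991054, minus strand), a chaperone gene called higher, show it. CCAAT, bound by NF-Y, was in 33.3% of proteasome windows and 53.8% of core windows, against 38.3% of promoters of all genes tested. Capitals mark the match, in either reading direction and 5′ to 3′ on the gene's strand. None of the 3 motifs holds another of them. A match is only these letters in this window.
Psmb5: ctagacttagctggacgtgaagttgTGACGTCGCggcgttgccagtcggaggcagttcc
Psmb6: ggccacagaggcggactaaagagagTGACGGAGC
Psmc6: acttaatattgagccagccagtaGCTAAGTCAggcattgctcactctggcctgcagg
Psmd2: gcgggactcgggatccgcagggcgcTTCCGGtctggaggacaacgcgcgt
Psmg1: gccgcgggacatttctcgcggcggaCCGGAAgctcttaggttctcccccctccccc

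In the cap, limma called 1 of 6 ATPase genes higher in replicates 1 and 2, 1 of 3 other base genes lower, and 0 of 8 lid genes (1 at an unadjusted p under 0.05). Of the 20 cap genes 10% were called, against 39.1% of all genes tested. Changes were above 0 for 17 of the 20 cap genes, but for 9 of them with libraries scaled to total FPKM. Psmc3 had 55.8 and 50.8 FPKM in CIH 1 and 2, against 40.1 and 43.3 FPKM in control 1 and 2, a log2 change of 0.35 (SE 0.0823, adjusted p = 0.0286). Psmc5 had a similar difference, 108 and 101 FPKM in CIH and 73.0 and 88.3 FPKM in control, without passing (log2 change 0.38, SE 0.113, adjusted p = 0.0532). For both ATPase genes the CIH libraries lay above both controls, as for 35.1% of all genes tested. The smallest changes among the ATPases were those of Psmc4, with 50.04 and 45.2 FPKM in CIH and 43.1 and 43.2 FPKM in control (log2 change 0.14, adjusted p = 0.213), and Psmc1, with 43.9 and 37.5 FPKM in CIH and 37.5 and 40.9 FPKM in control (log2 change 0.05, adjusted p = 0.726).

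Psmd1, the scaffold of the base, was the cap gene called lower. It had 26.3 and 25.7 FPKM in CIH 1 and 2 and 34.1 and 30.8 FPKM in control 1 and 2, a log2 change of -0.30 (SE 0.0774, limma adjusted p = 0.0343). Neither CIH library reached a control. Its scaffold partner Psmd2 had a log2 change of 0.01 (adjusted p = 0.907). The ubiquitin receptor Psmd4 had 69.6 and 63.3 FPKM in CIH and 60.7 and 65.8 FPKM in control, which overlapped (log2 change 0.07, SE 0.0847, adjusted p = 0.547).

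Among the lid genes, Psmd6 and Psmd13 had the highest changes. Psmd6 had 48.8 and 42.4 FPKM in CIH and 38.9 and 37.5 FPKM in control (log2 change 0.24, SE 0.0894, adjusted p = 0.0853), and Psmd13 had 32.9 and 28.0 FPKM in CIH and 25.5 and 26.3 FPKM in control (log2 change 0.22, SE 0.0949, adjusted p = 0.123). Both genes had CIH values above both controls, as had 35.1% of all genes tested. Psmd3 lay at the low end, at 47.7 and 42.5 FPKM in CIH and 45.9 and 50.9 FPKM in control (log2 change -0.10, SE 0.0930, adjusted p = 0.427). The deubiquitinase gene Psmd14, which frees the ubiquitin chain from the substrate, had 42.3 and 36.4 FPKM in CIH and 39.3 and 37.4 FPKM in control (log2 change 0.03, SE 0.0939, adjusted p = 0.814). Its CIH libraries enclosed the controls.

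Assembly chaperones of the core pair up alpha subunits before the ring closes, and 3 of their 4 genes were called higher in CIH 1 and 2. Among all genes tested 18.2% were called higher. Psmg1 had 24.4 and 21.2 FPKM in CIH and 17.7 and 17.0 FPKM in control (log2 change 0.37, SE 0.0900, limma adjusted p = 0.0298). Its partner Psmg2 had 35.1 and 31.2 FPKM in CIH and 26.4 and 26.9 FPKM in control (log2 change 0.30, SE 0.0810, adjusted p = 0.0396). Psmg4 had 50.2 and 45.1 FPKM in CIH and 37.6 and 38.7 FPKM in control (log2 change 0.31, SE 0.0792, adjusted p = 0.0342). Psmg3, the partner of Psmg4 and the least abundant gene tested, had 2.97 and 2.77 FPKM in CIH and 1.63 and 2.30 FPKM in control without passing (log2 change 0.40, SE 0.126, adjusted p = 0.0606). In all 4 genes both CIH libraries lay above both controls, as for 35.1% of all genes tested. Of the cap assembly chaperones, limma called 0 of 3, with 1, Psmd10, at an unadjusted p under 0.05 (log2 change 0.28, adjusted p = 0.0669). Psmd5 had 10.5 and 9.26 FPKM in CIH and 9.53 and 8.68 FPKM in control (log2 change 0.11, adjusted p = 0.417). Psmd9 was low, at 3.28 and 3.06 FPKM in CIH and 3.02 and 3.36 FPKM in control (log2 change -0.01, adjusted p = 0.964).

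Of the activators, which open the core without the ATPase cap, 1 of 6 genes with their inhibitor was called, and it was lower. That is 16.7% called, against 39.1% of all genes tested. Psme1, the PA28 alpha subunit, had 50.3 and 44.8 FPKM in CIH 1 and 2 and 59.2 and 57.3 FPKM in control 1 and 2 (log2 change -0.29, SE 0.0825, limma adjusted p = 0.0455). Limma did not call Psme1 with median-of-ratios scaling (adjusted p = 0.0522) or with no filter on low values (0.109). Its partner subunit Psme2 had 71.4 and 66.3 FPKM in CIH and 59.1 and 67.6 FPKM in control (log2 change 0.12, SE 0.0940, adjusted p = 0.348). The CIH values of Psme1 thus lay below both controls, while those of Psme2 overlapped them. Psme3, the nuclear PA28 gamma, had 74.3 and 75.7 FPKM in CIH and 75.5 and 71.8 FPKM in control (log2 change 0.03, SE 0.0687, adjusted p = 0.783). Psme4, the activator PA200, had 18.8 and 19.4 FPKM in CIH and 24.9 and 21.3 FPKM in control (log2 change -0.26, SE 0.0937, adjusted p = 0.0823). Psmf1, the inhibitor PI31, had 7.56 and 7.06 FPKM in CIH and 8.42 and 7.80 FPKM in control (log2 change -0.13, SE 0.0837, adjusted p = 0.257). Both last genes had CIH values below both controls without passing, and 38.9% of all genes tested lay below both controls.

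Some of these values may share reads with other genes. Psme2b had 80.8 and 57.6 FPKM in CIH 1 and 2, 51.4 and 62.8 FPKM in control 1 and 2, 0.109 FPKM in CIH 3 and a listed 0 in control 3 (log2 change 0.26 in replicates 1 and 2, SE 0.188, adjusted p = 0.319). Its transcript is 99.4% identical to that of Psme2 over 794 aligned bases, so both are uncertain. Exons of Psmb5 share 109 bases with Mir686 on the same strand. Those of Psmb7 share 405 bases with Nek6 and those of Psmc3 share 215 with Slc39a13, each on the opposite strand. Those of Psmd1 share 553 with Gm21972 on the same strand and Htr2b on the opposite strand. The library kit keeps strand, but whether counting used the strand is not stated in the labels.

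The replicate 3 pair went the other way for the core. CIH 3 lay below control 3 for all 14 core genes tested, with a median log2 change of -0.70, and for 13 of the 20 cap genes, with a median of -0.10. The 20 include the 3 cap assembly chaperones, all higher in CIH 3. By role the median was 0.05 for the cap ATPases, -0.83 for the other base genes and -0.40 for the lid. With each library scaled to its total FPKM, 8 of the 14 core genes and 6 of the 20 cap genes were lower. Over the 45 genes 33 were lower and 12 higher in CIH 3, against 38% of all genes tested that were lower, and the median was -0.38 against 0.26 for all genes. Set against that median of all genes, 39 of the 45 lay below it. At least 2-fold lower were 7 of the 45, against 11.8% of all genes, and 0 were at least 2-fold higher, against 21.8%. With 1 library per group this pair has no test, and it compares these libraries and not the conditions.

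Within the core the pair's gap was widest for Psma1, Psma6 and Psma5 of the alpha ring. Psma1 had 59.4 FPKM in CIH 3 and 452 FPKM in control 3, a log2 change of -2.91. Psma6 had 69.4 FPKM in CIH 3 and 203 FPKM in control 3 (-1.53), and Psma5 had 38.9 FPKM in CIH 3 and 112 FPKM in control 3 (-1.50). Psma2, which rose in CIH 1 and 2, had 74.3 FPKM in CIH 3 and 116 FPKM in control 3 (-0.64). The proteases showed the opposite direction to replicates 1 and 2. Psmb5 had 46.8 FPKM in CIH 3 and 94.4 FPKM in control 3 (-0.998), Psmb7 had 88.7 FPKM in CIH 3 and 184 FPKM in control 3 (-1.04), and Psmb6 had 95.7 FPKM in CIH 3 and 115 FPKM in control 3 (-0.27). Psmb1 was nearly equal, at 165 FPKM in CIH 3 and 167 FPKM in control 3. Of the 1995 genes that limma called higher in CIH 1 and 2, 36.3% were lower in CIH 3 than in control 3, near the 38% of all genes tested. Among the proteasome genes called higher, Psma2, Psmb5, Psmb6, Psmb7, Psmg1 and Psmg4 had this opposite sign, and Psmc3 and Psmg2 did not.

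Cap ATPases did not share the core's gap, with a median log2 change of 0.05 in the pair. Psmc3 was higher in CIH 3, 81.9 FPKM against 59.2 FPKM in control 3 (0.46), the direction it also had in replicates 1 and 2. Psmc5 had 65.6 FPKM in CIH 3 and 55.4 FPKM in control 3 (0.24). The other base genes lay with the core: Psmd4 had 56.6 FPKM in CIH 3 and 122 FPKM in control 3 (-1.09), Psmd2 had a log2 change of -0.83, and Psmd1 had 41.8 FPKM in CIH 3 and 69.2 FPKM in control 3 (-0.71), again lower in CIH. In the lid 7 of 8 genes were lower in CIH 3, from Psmd6 at -0.92 to Psmd14, whose 65.5 FPKM in CIH 3 and 65.6 FPKM in control 3 hardly differed. The 3 cap assembly chaperones were all higher in CIH 3, with Psmd9 at 15.5 FPKM against 9.16 FPKM in control 3 (0.70). Psme2 and Psme3 were at -1.02 and -1.03, and Psmf1 was at 0.74, with 24.0 FPKM in CIH 3 and 14.0 FPKM in control 3. Psme1, called lower in CIH 1 and 2, had 73.5 FPKM in CIH 3 and 81.0 FPKM in control 3 (-0.14).

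Markers of cell state moved with the pair. All 10 adipocyte markers were at least 2-fold lower in CIH 3, with a median log2 change of -4.94, and all 9 preadipocyte and fibroblast markers tested were at least 2-fold higher, with a median of 3.02. The preadipocyte list summed to 5006 FPKM in CIH 3 and 836 FPKM in control 3, against 577 and 575 FPKM in CIH 1 and 2 and 368 and 389 FPKM in control 1 and 2. In replicates 1 and 2 limma called 4 of the 10 adipocyte markers lower and 6 of the 9 preadipocyte markers higher, with 2 of the 9 lower. Of the adipocyte markers 40% were thus called, near the 39.1% of all genes tested, and of the preadipocyte markers 88.9%. The part of the marker shifts in the proteasome values was not tested, and in bulk RNA fewer cells of a type and less RNA per cell cannot be told apart. Directions in the pair also depended on scaling. With each library scaled to its total FPKM, the median of all genes was 0.84, that of the core -0.07 and that of the cap 0.52, and without mitochondrial genes in that total these were 0.41, -0.53 and 0.07. Relative to the median of all genes, the core stood at -0.96 as deposited and at -0.91 scaled to total FPKM, and the cap at -0.36 and -0.31.

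**Figure D3:**
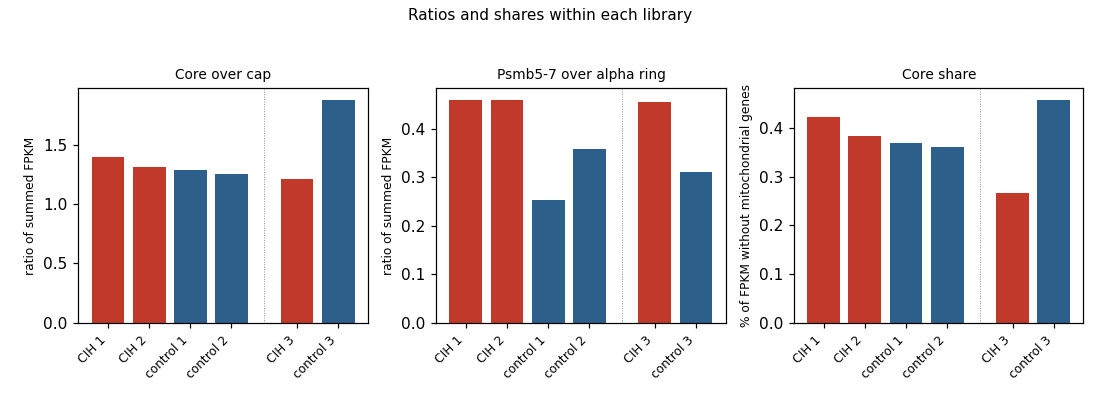
Ratio of summed core to summed cap FPKM (left), ratio of summed Psmb5, Psmb6 and Psmb7 to summed alpha-ring FPKM (middle), and core share of FPKM outside mitochondrial genes in percent (right), 1 bar per library, CIH in red and control in blue, with the replicate 3 pair right of the dotted line. The protease-to-alpha ratio is 0.461, 0.461 and 0.456 in the CIH libraries and 0.254, 0.359 and 0.312 in the controls, while the other ratios do not keep 1 order across both kinds of table.

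Ratios within a library do not depend on its scaling. Summed core FPKM was 1.40 and 1.31 times summed cap FPKM in CIH 1 and 2, against 1.29 and 1.25 times in control 1 and 2, and 1.21 times in CIH 3, against 1.88 times in control 3. The core-to-cap ratio therefore lay above control in replicates 1 and 2 and below it in the pair. The 3 protease genes together were 0.461 and 0.461 of the alpha-ring sum in CIH 1 and 2, against 0.254 and 0.359 in control 1 and 2. In the pair that ratio was 0.456 in CIH 3 and 0.312 in control 3, so it was the higher in CIH in both kinds of table. In the pair this rested largely on Psma1: without it the ratio was 0.517 in CIH 3 and 0.486 in control 3, whereas it stayed apart in replicates 1 and 2, at 0.622 and 0.630 in CIH, against 0.373 and 0.513 in control. Against the structural beta genes, the proteases were at 0.905 and 0.892 in CIH 1 and 2 and at 0.598 and 0.798 in control 1 and 2, but at 0.577 in CIH 3 and 0.725 in control 3. Core genes made up 0.423% and 0.383% of FPKM outside mitochondrial genes in CIH 1 and 2, 0.369% and 0.360% in control 1 and 2, 0.267% in CIH 3 and 0.459% in control 3. These sums were chosen after values were seen and carry no test.

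Subunits of 1 particle differed in FPKM, a level that depends on the length it is divided by. In the gene tables that length is the summed exons, 3894 bases for Psma3, 1234 for Psma6 and 899 for Psmb5. In CIH 1 and 2 the head of the order of the 45 tested genes was Psma6 at 165 ± 25.5 FPKM, Psma1 at 159 ± 15.4 FPKM and Psmb5 at 130.0 ± 12.5 FPKM (SD, n = 2 each), neighbours whose spreads overlapped or nearly met. In control 1 and 2 Psma1 and Psma6 led, at 182 ± 17.3 and 169 ± 7.46 FPKM, which did not differ beyond their spread, and Psma5 followed at 105 ± 3.37 FPKM. Psmb5 thus stood at place 3 of 45 in CIH 1 and 2 and at place 7 in control 1 and 2. At the low end of the core and cap subunits in control 1 and 2 were Psmc2 at 22.4 ± 0.739 FPKM, Psmd11 at 21.9 ± 1.12 FPKM and Psma3 at 19.5 ± 2.05 FPKM, neighbours within their spread. The order was not kept across kinds of table: Psma3 was at place 38 in control 1 and 2 and at place 7 in control 3, and Psmb7 at place 29 and at place 4. Over the 34 core and cap genes tested, the log2 ratio of control 3 to control 1 and 2 was the larger the longer the gene's exons were (Pearson's r 0.519, Spearman's rho 0.58, a description across genes of the same libraries).

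**Figure D4:**
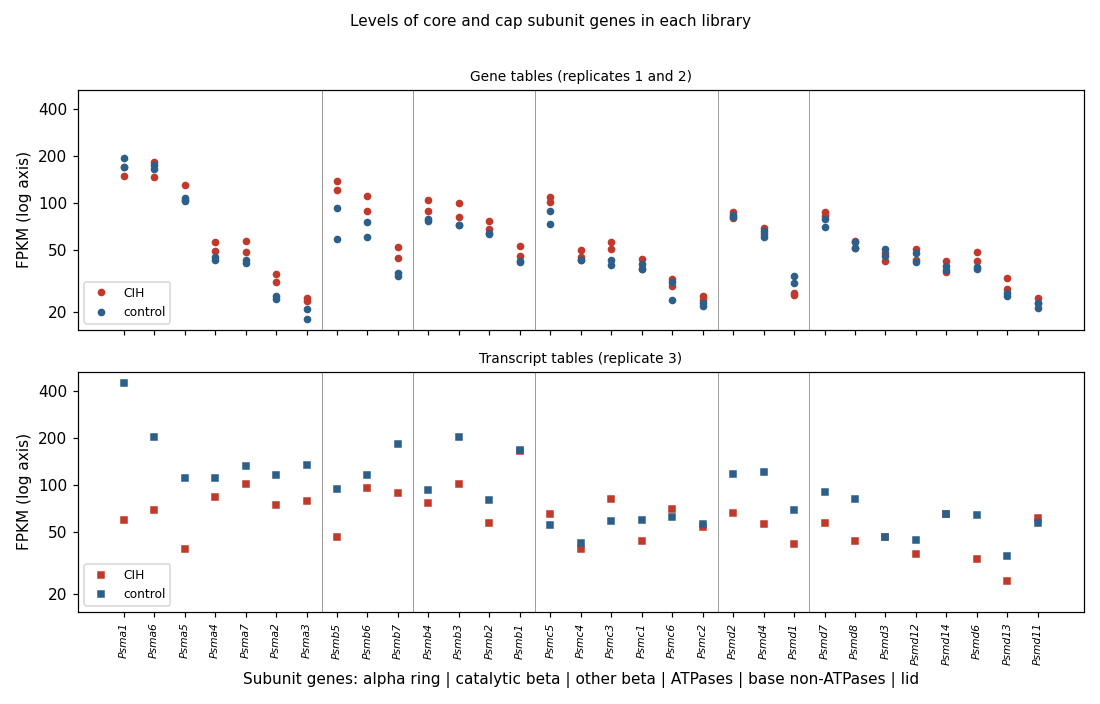
FPKM on a log axis (y) of the core and cap subunit genes (x, grouped by role and ordered by level), with gene-table libraries above and the replicate 3 pair below, CIH in red and control in blue, 1 point per library. In the upper panel Psma1 and Psma6 lie at 147 to 194 FPKM and Psmb5 separates CIH from control, and in the lower panel Psma1 spans 59.4 in CIH 3 to 452 in control 3.

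With all 6 libraries in 1 fit, no proteasome gene passed. Limma with the kind of table as a covariate called 0 of the 45, with 4 at an unadjusted p under 0.05 and a lowest adjusted p of 0.213 (Psmd1), against 0.574% of all genes tested. With the group alone it called 0 of the 45 and 0% of all genes tested, with 0 of the 45 at an unadjusted p under 0.05. Without CIH 3 or without control 3, the fit with the kind of table returned the 10 calls of replicates 1 and 2. That outcome was fixed in advance and adds nothing to those calls. The table term then fits the lone transcript table exactly, so the group change comes from replicates 1 and 2 alone.

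The other genes of the pathway were called in both directions. Among the ubiquitin and E1 genes, Ubb and Uba1 were higher in CIH 1 and 2. The polyubiquitin gene Ubb had 398 and 348 FPKM in CIH 1 and 2, against 269.7 and 293 FPKM in control 1 and 2 (log2 change 0.40, SE 0.114, limma adjusted p = 0.0446), and it was also higher in the pair, 893 FPKM in CIH 3 and 623 FPKM in control 3. Uba1, the main ubiquitin-activating enzyme, had 125 and 124 FPKM in CIH and 93.9 and 98.4 FPKM in control, with no overlap (log2 change 0.37, SE 0.0712, adjusted p = 0.0169). Uba6, the second such enzyme, had a log2 change of -0.08 (adjusted p = 0.610).

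Of 11 tested genes for proteasome-associated proteins, 3 were called higher in CIH 1 and 2 and 2 lower, or 45.5% called, against 39.1% of all genes tested. Pomp, the maturation factor of the core, had 21.5 and 17.9 FPKM in CIH and 15.4 and 14.5 FPKM in control (log2 change 0.37, SE 0.105, adjusted p = 0.0448), and in the pair 61.7 FPKM in CIH 3 and 122 FPKM in control 3. Pomp therefore had the same pair of directions as the proteases it helps to mature. The ubiquitin ligase Ube3c rose (log2 change 0.47, adjusted p = 0.00986), as did the small cap subunit Sem1 (0.45, adjusted p = 0.0478). Zfand5, an activator of the cap known to be induced in wasting muscle, had 25.6 and 24.3 FPKM in CIH and 40.6 and 39.7 FPKM in control (log2 change -0.66, SE 0.0663, adjusted p = 0.00314), and Ecpas fell by 0.29 on the log2 scale (adjusted p = 0.0346). In the pair Zfand5 went the other way, with 119 FPKM in CIH 3 and 91.9 FPKM in control 3. The pair's log2 change was -0.34 for Ecpas, -0.13 for Ube3c and -0.36 for Sem1. Usp14, a deubiquitinase on the cap, and Adrm1, a ubiquitin receptor, had log2 changes of 0.14 and 0.07 and did not pass.

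Shuttle receptors and the VCP unfoldase, which bring substrates to the cap, gave 0 of 11 higher and 4 lower in CIH 1 and 2 (Vcp, Nploc4, Ubqln1 and Faf1). That is 36.4% called, near the 39.1% of all genes tested. Faf1, a VCP adaptor, had 11.8 and 10.9 FPKM in CIH and 16.6 and 15.1 FPKM in control (log2 change -0.44, SE 0.0842, adjusted p = 0.0161). Vcp itself had 51.1 and 48.0 FPKM in CIH and 62.7 and 59.5 FPKM in control (log2 change -0.30, adjusted p = 0.0303). All 4 genes were also lower in CIH 3 than in control 3, except that Faf1 (0.02) and Nploc4 (0.42) changed sign with total-FPKM scaling. The highest of the list, Ubqln4, had a log2 change of 0.27 (adjusted p = 0.0522).

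The 12 genes for transcription factors of proteasome genes and for their processing gave 0 higher and 4 lower (Keap1, Ddi2, Maff and Nfyb), which is 33.3% called, against 39.1% of all genes tested. Nfe2l1, the NRF1 gene, had 137 and 134 FPKM in CIH 1 and 2 and 143 and 164 FPKM in control 1 and 2 (log2 change -0.18, SE 0.0954, adjusted p = 0.196). Nfe2l2, the NRF2 gene, had 18.6 and 17.7 FPKM in CIH and 20.1 and 18.8 FPKM in control (log2 change -0.09, SE 0.0736, adjusted p = 0.349). Neither RNA was called, though both had CIH values below both controls, as had 38.9% of all genes tested. In the pair Nfe2l1 hardly differed, with 133 FPKM in CIH 3 and 126 FPKM in control 3. Its log2 change was 0.08, against a median of 0.26 for all genes tested, and -0.22 with median-of-ratios scaling. Nfe2l2 was higher in CIH 3, with 45.2 FPKM against 33.2 FPKM in control 3 (0.44, and 0.15 with that scaling). Ddi2, the protease that activates NRF1, had 8.55 and 9.86 FPKM in CIH and 17.1 and 17.6 FPKM in control (log2 change -0.85, SE 0.0898, adjusted p = 0.00359), with 17.1 FPKM in CIH 3 and 30.4 FPKM in control 3. Maff, a small partner of the NRF factors, had 10.4 and 9.76 FPKM in CIH and 29.2 and 29.6 FPKM in control (log2 change -1.46, SE 0.0696, adjusted p = 0.000737). It was lower in the pair as well, with 2.33 FPKM in CIH 3 and 8.30 FPKM in control 3, and it was the 1 gene of the list that passed in 6 libraries with the kind of table (adjusted p = 0.0307). Nfya, an NF-Y subunit, had the highest change of the list, 0.22 (adjusted p = 0.0900).

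Of the immunoproteasome genes, Psmb10 rose, with 43.3 and 35.6 FPKM in CIH 1 and 2, against 24.3 and 29.3 FPKM in control 1 and 2 (log2 change 0.54, SE 0.135, adjusted p = 0.0325), and it had 23.4 FPKM in CIH 3 and 25.6 FPKM in control 3. Its call was lost without control 1 (adjusted p = 0.0838), without CIH 1 (0.129) and with no filter on low values (0.132). Psmb8 and Psmb9 were not called and were higher in the pair, at 12.6 and 17.3 FPKM in CIH 3, against 2.37 and 0.539 FPKM in control 3.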

How the data were processed

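The authors deposited FPKM values, a unit read from the values because the file headers name only samples. Per the submitters' processing notes, the build was GRCm38, and featureCounts 1.5.0-p3 and DESeq 1.8.3 were listed without their role. No source used here names the aligner. Repeated gene IDs of the transcript tables were summed, and GENCODE M21 gave symbols and biotypes. Fragments per library were derived from the gene tables' value steps, with 98.4% to 98.6% of low values within 0.05 of a whole number. Values were taken as log2(FPKM + 1), which understates the change of low genes.

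Genes in all files with a mean of at least 1 FPKM were tested with limma 3.58.1 in R 4.3.3 (empirical Bayes with a trend, Benjamini-Hochberg adjustment over all genes tested), CIH 1 and 2 against control 1 and 2. The code was tested on simulated data. CIH 3 against control 3 has no test. Called means an adjusted p under 0.05. Some genes of the ubiquitin list are not reported here. The members and lists were chosen with earlier results of these data known. Named genes are the highest and lowest 2 changes of each role, fixed roles, and the extremes of each other list, and further genes named by call or for contrast were chosen after their values were seen.

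Replicate numbers recur in both groups. In 6 libraries, deviations of same-numbered libraries correlated at 0.529, 0.587 and 0.582, and CIH 1 with control 2 at 0.567. CIH 3 correlated with control 1 and 2 at -0.553 and -0.582. Since the means span both kinds of table, these values cannot show pairing by number. The 6-library fit called 0 proteasome genes with this block and 0 without it. In replicates 1 and 2 the correlation was -0.18. Alternatives were another pseudocount, other filters, other scalings, a replicate block and each library left out. Python 3.11.15 handled tables and figures.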

Additional observations from a re-analysis of the deposited data

Results flagged for a closer look

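Of the 8 proteasome genes called higher in CIH 1 and 2, 6 were lower in CIH 3 than in control 3. The log2 change of the pair was -0.64 for Psma2, -0.998 for Psmb5, -0.27 for Psmb6, -1.04 for Psmb7, -0.73 for Psmg1 and -0.0529 for Psmg4. Each CIH library of replicates 1 and 2 lay above both controls for these genes, while the pair went the other way, and the difference was not tested, since the pair holds 1 library per group. Once libraries were scaled to total FPKM, Psmb6 was at 0.36 and Psmg4 at 0.56, Psma2 was at -0.0129, and Psmb5, Psmb7 and Psmg1 stayed negative. Without mitochondrial genes in that total, Psmg4 was at 0.11. Of all genes called higher in CIH 1 and 2, 36.3% had this opposite sign.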

How the results depend on the processing

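Against 10 calls among the proteasome genes and 4292 among all genes, limma called 0 and 2584 without a filter on low values (8 proteasome genes at an unadjusted p under 0.05). It called 18 proteasome genes with the filter set over the 4 libraries compared, against 50.1% of all genes, and 18 with upper-quartile scaling, against 39.5%. The other scalings and pseudocount gave 8 to 13, against 36.6% to 40.6% of all genes. The replicate block left 3 calls (Psma2, Psmb7 and Psmg1), against 30.4% of all genes. The 6-library fit called 0 proteasome genes with this block as without it. The crossed pairing gave 12 proteasome genes and 4510 genes. Leaving out 1 library, where the lone library of a group is assumed to vary like the other group, gave 0 to 9 proteasome genes and 1865 to 3682 genes, and in 6 libraries with the table term it gave 0 to 10 proteasome genes. The 10 came without CIH 3 or without control 3, where the fit repeats that of replicates 1 and 2. The core median of replicates 1 and 2 kept its sign, at 0.18 to 0.39 with 1 library left out. The cap median was 0.0429 without CIH 1, 0.18 without CIH 2 and -0.0020 under total-FPKM scaling. In the pair, scaling by total FPKM, by the median of ratios and by total FPKM without mitochondrial genes gave a core median of -0.0745, -0.99 and -0.53 and a cap median of 0.52, -0.38 and 0.0668. The crossed pairing and the scaling without mitochondrial genes were chosen after seeing the data. Causes of these shifts were not tested. The depth of the transcript tables is unknown, which limits the pair.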

Other observations

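The pseudogenes found by a Psm symbol (Psmb5-ps, Psmb6-ps, Psmb6-ps2 and Psmb7-ps2) were at most 0.0551 FPKM in the gene tables. Pseudogenes under other symbols were not looked for. The core gene with the least change in the pair, Psmb1, held the first place among the 45 tested genes in CIH 3, at 165 FPKM, and place 6 in control 3, at 167 FPKM. Psmc3ip, which is no subunit, had 12.1 and 10.4 FPKM in CIH 1 and 2 and 10.5 and 11.1 FPKM in control 1 and 2 (log2 change 0.04, limma adjusted p = 0.743), and 10.4 FPKM in CIH 3 against 17.3 FPKM in control 3.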
